A study of Mus musculus with 14 samples.

Results

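miR-146a-5p and miR-146b-5p are sister microRNAs (miRNAs) that come from separate genes and were followed here along the mouse epididymis, the duct in which sperm mature between testis and vas deferens. They were taken by name from both count tables of the study, 2 of the 999 miRNA names listed, and both were above a mean count of 10 in at least 1 region of each preparation. The animals were 8-week-old male Swiss mice whose blood vessels had been flushed with PBS, and the epididymis was divided into caput (proximal), corpus and cauda (distal). Small RNA was sequenced from whole tissue (3 caput, 2 corpus and 3 cauda libraries) and from epithelial cells isolated from each region with trypsin and collagenase (2 libraries per region), the cells kept being those still in suspension after others had attached. The study names the attached cells as fibroblasts and muscle cells, and sperm were flushed or washed out beforehand. It reports a high enrichment of epithelial cells by immunostaining and no detected sperm protein IZUMO1. The RNA of each library was pooled over several mice. The study's methods call such pools biological replicates, while a note to its supplementary material calls the replicates technical, so p-values are taken here to measure only the spread between libraries, which may be technical.

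A mature miRNA guides Argonaute proteins to messenger RNAs through its seed, bases 2 to 8, and lowers their translation or stability. The miR-146 family is known as a brake on innate immune signalling, and the miR-146a gene is switched on by NF-κB. The mature forms repress Traf6 and Irak1, which carry signals from Toll-like and interleukin-1 receptors. The epididymal epithelium borders a duct full of sperm that the immune system must tolerate while it still answers ascending infection.

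The mature sequences are shown because they share a seed and part of the reads. Both are 22 bases long, and the seed is in capitals.
miR-146a-5p: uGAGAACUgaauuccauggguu
miR-146b-5p: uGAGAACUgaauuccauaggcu
These RefSeq sequences were identical over their first 17 bases and at 20 of 22 positions in all. They differed by G18A and U21C, with the base of miR-146a-5p first and positions counted from its 5′ end. The seed GAGAACU occurred in 2 of the 1679 mature mouse miRNAs listed by RefSeq, the pair itself, and the shared 17 bases likewise stood in no other entry. A read that ends before base 18 therefore does not say which of the pair it came from.

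The hairpins, in contrast, are unlike outside the 5p arm, and their opposite arms have different seeds. They are shown with both mature arms in capitals.
Mir146: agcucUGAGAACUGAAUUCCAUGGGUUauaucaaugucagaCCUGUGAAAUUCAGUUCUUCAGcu
Mir146b: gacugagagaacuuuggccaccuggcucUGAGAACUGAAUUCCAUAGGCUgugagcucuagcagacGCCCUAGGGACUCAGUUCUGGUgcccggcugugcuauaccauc
Mir146, the precursor of miR-146a, lies at chr11:43374397-43374461 on the minus strand (GRCm38.p6, the assembly called mm10). It overlapped no other gene of the GENCODE vM21 annotation, and the nearest protein-coding gene, Pttg1, was 45789 bases away. Mir146b lies at chr19:46342762-46342870 on the plus strand, within Mfsd13a, which is on the same strand. It overlapped 1 of the 5 annotated Mfsd13a transcripts and 0 of the gene's exons, so its position there is intronic, 1641 bases from the start of the host gene. Nfkb2, which encodes a subunit of NF-κB, ended 30377 bases upstream of it.

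Total counts ran from 1243398 to 2135501 in the whole tissue libraries and from 89039 to 362867 in those of epithelial cells, so that 10 counts stood for 4.68 to 8.04 CPM (counts scaled to a common library total) in the former and 27.6 to 112 CPM in the latter. Epithelial marker miRNAs (the miR-200 family, miR-141 and miR-205) were present in both preparations: their summed level was 22061 to 22833 CPM in whole caput and 22409 to 24448 in epithelial caput, 18432 to 19281 and 36505 to 41452 in corpus, and 8935 to 10708 and 32680 to 40995 in cauda. miR-205-5p was higher in epithelial cells in all 3 regions, by 2.25, 3.35 and 4.12, but in caput miR-200a-3p (−1.12) and miR-141-3p (−1.24) were lower there, and the median of the 6 markers was −0.26. Muscle markers (miR-143, miR-145, miR-133a and miR-1a) summed to 54584 to 280159 CPM in whole tissue and 113786 to 327442 in the epithelial libraries. Their sum was above whole tissue in epithelial caput and corpus. It was mostly miR-143-3p, with means of 57983 and 142658 CPM in whole and epithelial caput. Endothelial markers (miR-126) summed to 14247 to 18906 and 13396 to 55048 CPM, fibroblast markers (miR-199a and miR-214) to 1311 to 3011 and 1367 to 3575 CPM, red blood cell markers (miR-451, miR-144 and miR-486) to 85.6 to 1468 and 195 to 2845 CPM, and germ cell markers (miR-34c, miR-449a and an X-linked group) to 3936 to 13005 and 2340 to 5722 CPM, in whole tissue and epithelial cells respectively. The epithelial caput libraries thus overlapped whole caput in the sum of epithelial markers, and markers of muscle and vessel were present in all epithelial libraries. The germ cell sum was mostly miR-34c-5p, with means of 8941 CPM in whole cauda and 3161 in epithelial caput. The part of other cell types in the results below was not tested.

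miR-146b-5p was a caput miRNA in both preparations. In whole tissue its counts were 645.5, 377 and 767 in the caput libraries, 85 and 71 in corpus, and 90, 96 and 67 in cauda. In epithelial cells they were 242 and 312.5 in caput, 21 and 9 in corpus, and 26 and 24 in cauda. Every caput library stood above every corpus and cauda library of the same preparation, and the corpus and cauda libraries overlapped in whole tissue.

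On the CPM scale with TMM factors (a library scaling that assumes most miRNAs do not differ), whole tissue caput held 415, 260.1 and 421 CPM of miR-146b-5p, or 365 ± 91.3 (SD, n = 3). Corpus held 63.5 and 46.6 CPM, 55.0 ± 12.0 (SD, n = 2), and cauda 46.3, 59.1 and 39.5 CPM, 48.3 ± 9.95 (SD, n = 3). The order was therefore caput, corpus, cauda, with corpus and cauda closer to each other than the spread within them. In epithelial cells the levels were 753 and 1007 CPM in caput, 170.4 and 91.9 in corpus, and 96.8 and 115 in cauda, with means of 880 ± 179, 131 ± 55.5 and 106 ± 12.6 CPM (SD, n = 2 each). The same order held, and again corpus and cauda overlapped.

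**Figure D1:**
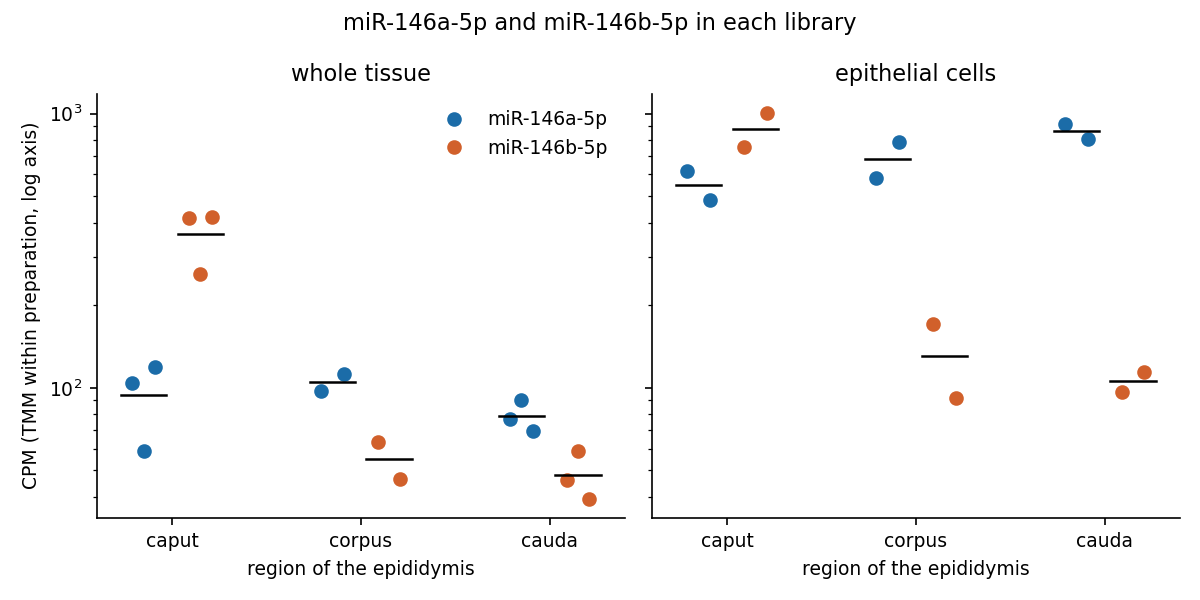
Level of miR-146a-5p (blue) and miR-146b-5p (orange) in each library, in CPM with TMM factors on a log axis, by region, for whole tissue (left) and epithelial cells (right); points are libraries and bars are group means. miR-146b-5p falls from a mean of 365 to 55.0 CPM between caput and corpus in whole tissue and from 880 to 131 CPM in epithelial cells, while the miR-146a-5p groups lie within 79.1 to 105 CPM and 551 to 862 CPM.

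Differences between regions were tested with limma-voom, with Benjamini-Hochberg adjustment over all miRNAs tested, and a miRNA was called at an adjusted p below 0.05 with a change of at least 2-fold. From caput to corpus miR-146b-5p fell by 2.72 on the log2 scale in whole tissue (SE 0.28, adjusted p = 3.9e-05), that is 6.60-fold lower, the 11th largest fall of 334 miRNAs tested. In that comparison 15.9% of the tested miRNAs were called lower. In epithelial cells it fell by 2.71 (SE 0.37, adjusted p = 0.00296), 6.53-fold lower and the third largest fall of 205, where 5.85% were called lower. Cell type markers moved too in these comparisons: in whole tissue 1 of 6 epithelial markers was lower and 3 of 3 red blood cell, 4 of 6 germ cell, 1 of 3 fibroblast and 1 of 4 leukocyte markers (miR-150-5p, by 1.37) were higher, where 14.1% of all miRNAs were called higher, and in epithelial cells both endothelial markers were lower (miR-126-3p with −1.27, miR-126-5p with −1.13), while 1 of 6 epithelial and 3 of 5 germ cell markers tested were higher, where 6.34% of all were. In either direction 25 miRNAs were called in epithelial cells, and 10 without the second caput library. In bulk libraries such as these, fewer cells that make a miRNA and less of it per cell cannot be told apart.

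**Figure D2:**
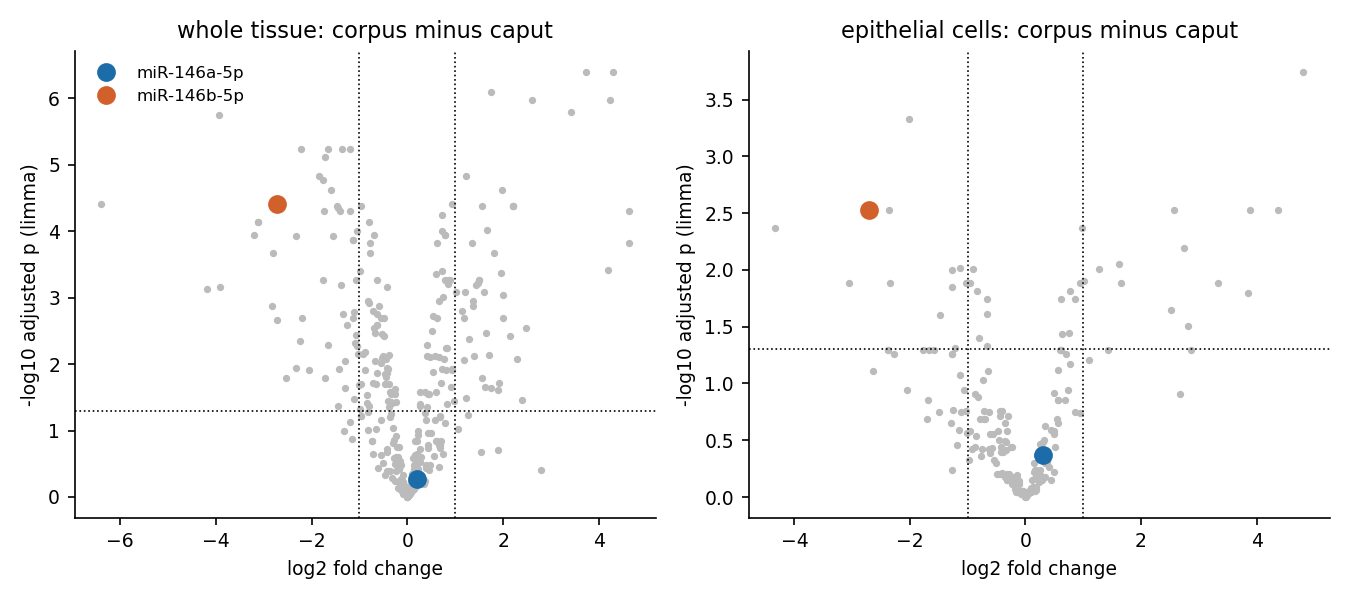
Change from caput to corpus (log2) against −log10 of the adjusted p for every miRNA tested in whole tissue (left, 334) and epithelial cells (right, 205), with separate vertical scales; dotted lines mark the 2-fold and 0.05 thresholds. miR-146b-5p (orange) lies at −2.72 and −2.71, past both thresholds, and miR-146a-5p (blue) at 0.20 and 0.30, past neither.

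Between caput and cauda, a comparison that uses the same caput libraries, miR-146b-5p fell by 2.91 in whole tissue (SE 0.24, adjusted p = 1.8e-06), 7.51-fold lower, where 25.4% of 355 miRNAs were called lower. In epithelial cells it fell by 3.03 (SE 0.32, adjusted p = 0.000708), 8.16-fold lower, where 12% of 216 were. Beside the whole tissue fall, 5 of 6 epithelial markers were lower (median −1.16). Called higher were 4 of 4 muscle (median 2.66), 3 of 3 red blood cell, 4 of 6 germ cell, 1 of 3 fibroblast and 3 of 5 leukocyte markers, where 27.9% of all miRNAs were. In epithelial cells 0 of 6 epithelial, 0 of 3 muscle and 0 of 2 endothelial markers were called between caput and cauda. Called higher were 3 of 3 red blood cell, 4 of 6 germ cell, 1 of 3 fibroblast (miR-199a-3p, by 1.08) and 2 of 2 leukocyte markers, where 13.9% of all were. In either direction 56 of 216 miRNAs were called there, and 26 of 219 without the second caput library. From corpus to cauda the difference was −0.19 in whole tissue (95% interval −0.89 to 0.52, adjusted p = 0.618) and −0.32 in epithelial cells (−1.33 to 0.69, adjusted p = 0.652), with 27.3% and 10.9% of all miRNAs called there. The epithelial share rested on few libraries: it was 2.09% without the first corpus library, 4.12% without the second and 4.17% without the second caput library. The fall of miR-146b-5p thus lay between caput and corpus, and no difference between corpus and cauda was detectable within the intervals just given.

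miR-146a-5p had no such step. In whole tissue its counts were 161.5, 85 and 218 in caput, 130 and 171 in corpus, and 150, 147 and 118 in cauda. In epithelial cells they were 198 and 150.5, 72 and 77, and 246 and 169. In CPM, whole tissue held 104, 58.6 and 120 CPM in caput (94.1 ± 31.7, SD, n = 3), 97.1 and 112 in corpus (105 ± 10.6, SD, n = 2), and 77.2, 90.5 and 69.6 in cauda (79.1 ± 10.6, SD, n = 3). The order of the means was corpus, caput, cauda, but the caput libraries spanned the other groups wholly, the second of them being the lowest of the 8 and the third the highest. For miR-146b-5p too, that second library was the lowest of the caput group.

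From caput to corpus miR-146a-5p differed by 0.20 in whole tissue (95% interval −0.39 to 0.79, adjusted p = 0.538) and by 0.30 in epithelial cells (−0.28 to 0.88, adjusted p = 0.427). From caput to cauda in whole tissue it differed by −0.21 (−0.75 to 0.32, adjusted p = 0.430), and from corpus to cauda by −0.41 (−1.01 to 0.18, adjusted p = 0.199). These intervals leave room for changes of up to about the threshold of 2-fold, but not for one of the size seen for miR-146b-5p. The sign of the whole tissue differences from caput was set by single libraries: the corpus difference was −0.037 without the second caput library, and the cauda difference 0.064 without the third.

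In epithelial cells the means of miR-146a-5p ran the opposite way from those of its sister. The levels were 616 and 485 CPM in caput, 584 and 786 in corpus, and 916 and 807 in cauda, with means of 551 ± 92.8, 685 ± 143 and 862 ± 76.9 CPM (SD, n = 2 each). Caput and corpus overlapped, cauda stood above both, and neighbouring groups did not pass the test (corpus to cauda, 0.36, adjusted p = 0.345). Cauda exceeded caput by 0.66 (SE 0.22, 95% interval 0.15 to 1.16, adjusted p = 0.0443), a 1.58-fold difference that stayed below the 2-fold threshold and was not called. Its adjusted p ranged from 0.0228 to 0.215 over the alternatives tried.

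The change along the duct was then compared between preparations, in 1 fit of all 14 libraries over the 194 miRNAs above the count minimum in both under the same name. For miR-146b-5p the epithelial change minus the whole tissue change was 0.12 from caput to corpus (95% interval −1.15 to 1.40), −0.18 from corpus to cauda (−1.70 to 1.34) and −0.057 from caput to cauda (−1.17 to 1.06), with adjusted p-values of 0.941, 0.906 and 0.938. For miR-146a-5p it was 0.19, 0.73 and 0.92, the last with an adjusted p of 0.0669 and a median over all miRNAs of 0.38. No member was called, against 4.12%, 6.7% and 20.1% of all 194. The caput to cauda value of miR-146a-5p depended on single libraries: it was 1.24 (adjusted p = 0.00381) without the second caput library of whole tissue and 0.41 (adjusted p = 0.597) without the second epithelial caput library.

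Because the pair can exchange reads, their counts were also added. Values ending in 0.5 appeared for both members in 2 of 14 libraries, the first whole tissue caput and the second epithelial caput, and the sum of the pair was whole (within 1e-06) in 14 of 14. How the study divided reads that fit more than 1 miRNA was not given in the sources used here, and as an even number of divided reads leaves no fraction, the number of shared reads cannot be read from the tables. The sum ran from 185 to 985 counts in whole tissue and from 86 to 463 in epithelial cells. Tested as 1 feature, it fell by 1.49 from caput to corpus in whole tissue (SE 0.24, adjusted p = 0.000493) and by 1.83 from caput to cauda (SE 0.21, adjusted p = 2.1e-05). In epithelial cells the sum fell by 0.78 (SE 0.18, adjusted p = 0.0270) and 0.54 (SE 0.16, adjusted p = 0.0353), both under 2-fold. From corpus to cauda it differed by −0.34 in whole tissue and 0.24 in epithelial cells (adjusted p = 0.261 and 0.406). The estimated changes of the summed carriers of the shared seed were thus under 2-fold along the epithelium. There miR-146b-5p alone was 6.53-fold lower from caput to corpus and 8.16-fold lower from caput to cauda. The SE of the caput to corpus estimate of the sum leaves room for a fall past 2-fold, and the sum was not tested under the alternatives.

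The make-up of the pair gives the comparison that needs no library scaling, since both counts come from 1 library and both molecules have the same length. In whole tissue miR-146b-5p made 80.0% (95% Wilson interval 77.2 to 82.7), 81.6% and 77.9% of the pair's counts in the caput libraries, 39.5% and 29.3% in corpus, and 37.5%, 39.5% and 36.2% in cauda. In epithelial cells it made 55.0% (50.3 to 59.6) and 67.5% (63.0 to 71.5) in caput, 22.6% (15.3 to 32.1) and 10.5% (5.60 to 18.7) in corpus, and 9.56% (6.61 to 13.6) and 12.4% (8.50 to 17.8) in cauda. miR-146b-5p was the larger member in all 5 caput libraries and the smaller in all 9 others. Within each region every epithelial library had a lower share than every whole tissue library. The intervals cover counting error only.

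**Figure D3:**
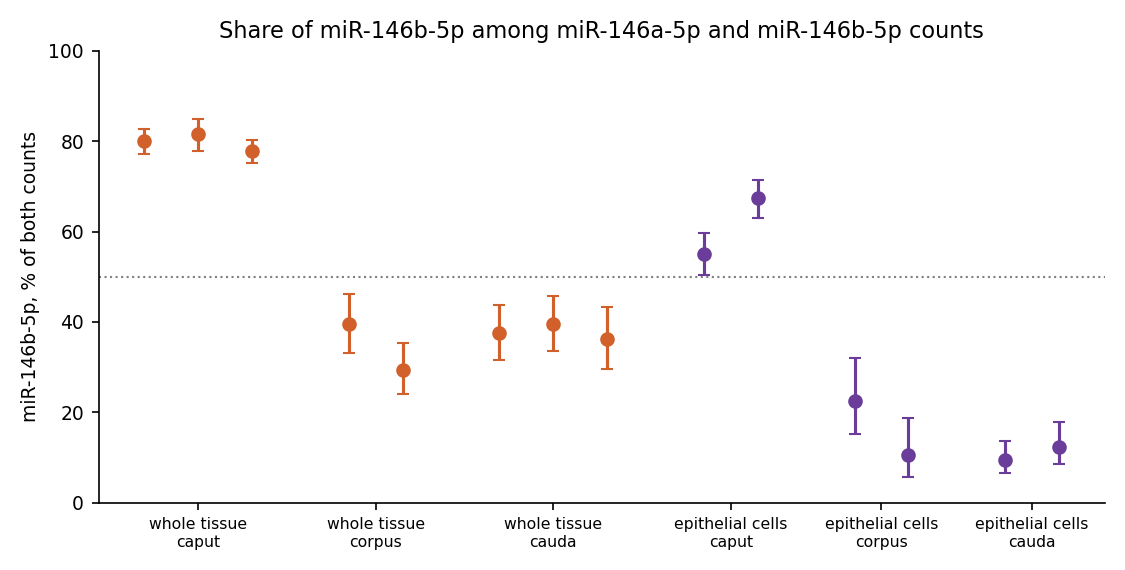
Share of miR-146b-5p in the summed counts of miR-146a-5p and miR-146b-5p (%) in each of the 14 libraries, whole tissue in orange and epithelial cells in purple; bars are 95% Wilson intervals and the dotted line marks equal counts. The 3 whole tissue caput libraries lie between 77.9% and 81.6%, and the 2 epithelial cauda libraries at 9.56% and 12.4%.

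On the log2 scale the ratio of miR-146b-5p to miR-146a-5p averaged 1.99 ± 0.17, −0.94 ± 0.46 and −0.72 ± 0.10 in caput, corpus and cauda of whole tissue (SD, n = 3, 2 and 3) and 0.67 ± 0.54, −2.44 ± 0.93 and −3.03 ± 0.30 in epithelial cells (SD, n = 2 each). The epithelial value minus that of whole tissue was −1.32, −1.50 and −2.31 in the same order and −1.71 over the regions, a 3.26-fold lower ratio in epithelial cells. An exact two-sided permutation test that exchanged the preparations within regions gave p = 0.00167, the smallest its 600 arrangements allow. Between regions of 1 preparation the exact tests could not reach 0.05: from caput to corpus the ratio fell by 2.93 in whole tissue (p = 0.1, the smallest possible) and by 3.11 in epithelial cells (p = 0.333, the smallest possible). With both preparations in 1 exact permutation test, added after the data were seen, the fall was 3.02 from caput to corpus and 3.21 from caput to cauda. Each gave an exact permutation p of 0.0167, the smallest possible, or 0.025 adjusted over the 3 pairs of regions. With the same-numbered caput and cauda libraries of whole tissue kept as pairs, the caput to cauda test had 48 arrangements and gave an exact permutation p of 0.0417, again the smallest possible, and the adjusted values were then 0.0625 for caput to cauda and 0.05 for caput to corpus, neither of which passes. From corpus to cauda the difference was −0.19 (exact permutation p = 0.75).

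The lower share of miR-146b-5p in epithelial cells went with a much higher level of its sister. In the fit of all 14 libraries, miR-146a-5p stood at 93.9 ± 33.9 CPM in whole caput and 470 ± 20.6 in epithelial caput, 111 ± 11.4 and 678 ± 179 in corpus, and 86.8 ± 10.7 and 847 ± 60.3 in cauda (SD, n = 3 or 2). It was higher in epithelial cells by 2.38 in caput (SE 0.26, adjusted p = 2.8e-06), 2.57 in corpus (SE 0.32, adjusted p = 1.6e-05) and 3.30 in cauda (SE 0.25, adjusted p = 1e-07), or 5.20-fold, 5.92-fold and 9.83-fold. The cauda value was the second largest rise of the 194. Of all 194 miRNAs, 15.5%, 12.4% and 21.6% were called higher in caput, corpus and cauda.

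miR-146b-5p stood at 364 ± 98.7 and 769 ± 249.8 CPM in whole and epithelial caput, 58.3 ± 12.6 and 127 ± 47.1 in corpus, and 53.0 ± 10.4 and 104 ± 14.3 in cauda. It was higher in epithelial caput by 1.06 (SE 0.25, adjusted p = 0.00179), 2.08-fold. This call rested on the second whole tissue caput library, without which the difference was 0.81, under 2-fold. In corpus the difference was 1.18 (95% interval 0.015 to 2.34, adjusted p = 0.0823). It was 1.18 with an adjusted p of 0.0328 without that same library, and 0.59 with an adjusted p of 0.562 without the first epithelial corpus library. In cauda it was 1.00 (0.017 to 1.98, adjusted p = 0.0701). Markers of other cells differed between the preparations as well. Both muscle markers tested were higher in epithelial caput and corpus, miR-143-3p by 1.26 and 1.28 and miR-133a-3p by 3.75 and 2.99. Neither was called in cauda (−0.26 and 0.64). The other muscle markers were not tested, as they are not above the count minimum under 1 name in both. miR-145-5p had means of 295 CPM in whole caput and 5898 in epithelial caput, 412 and 7727 in corpus, and 1415 ± 419 (SD, n = 3) and 11956 ± 10034 (SD, n = 2) in cauda. miR-1a-3p had 211 and 34.1 in cauda. Endothelial markers summed to 23955 to 28103 CPM in epithelial caput and 14247 to 17981 in whole caput, 13396 to 13507 and 14776 to 15600 in corpus, and 46489 to 55048 and 18240 to 18906 in cauda. Red blood cell markers summed to 85.6 to 93.8 CPM in whole caput and 349 to 357 in epithelial caput, 243 to 287 and 195 to 413 in corpus, and 899.9 to 1468 and 1559 to 2845 in cauda. Of all 194 miRNAs, 37.1%, 30.4% and 39.7% were called in either direction in caput, corpus and cauda, and 15.5%, 12.4% and 21.6% higher. Of the 3 fibroblast markers, 2, 0 and 1 were higher in the same order (miR-199a-3p by 1.03 in caput and 1.16 in cauda) and 1 was lower in each. Of the 6 germ cell markers 2, 2 and 5 were lower. Their part in the differences of the pair was not tested. Preparation, count table and depth cannot be told apart in these differences.

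**Figure D4:**
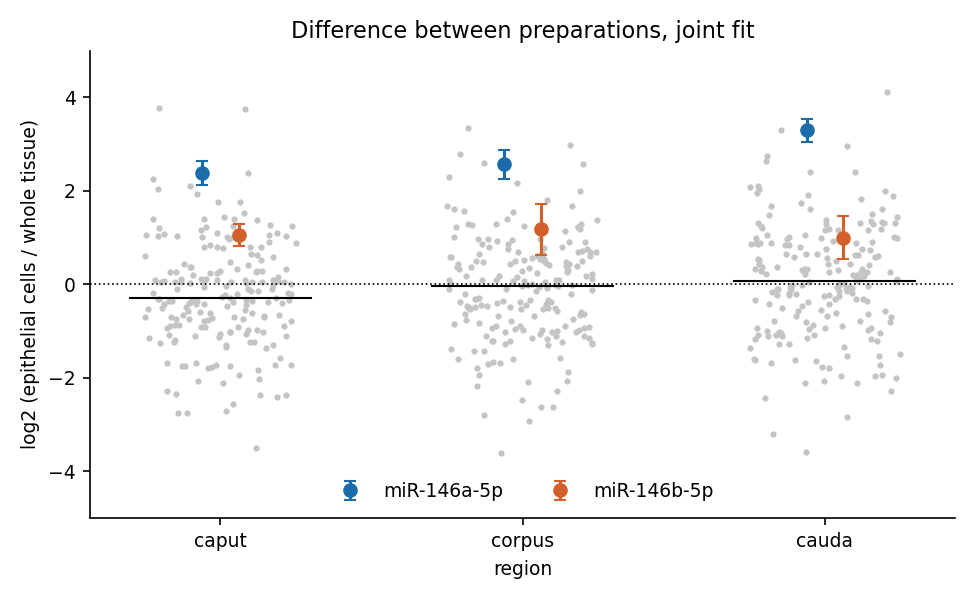
Difference between epithelial cells and whole tissue (log2) by region for the 194 miRNAs in both (grey), with their median (black line) and miR-146a-5p (blue) and miR-146b-5p (orange) ± SE. miR-146a-5p lies at 2.38, 2.57 and 3.30 and miR-146b-5p at 1.06, 1.18 and 1.00, against medians of −0.28, −0.027 and 0.080.

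Ranked by mean count among the miRNAs above the minimum, miR-146b-5p went from place 95 of 312 in whole caput to 185 of 304 in corpus and 195 of 325 in cauda, and from 66 of 199 to 129 of 149 and 141 of 191 in epithelial cells. miR-146a-5p held places 156, 150 and 166 in whole tissue and 79, 76 and 68 in epithelial cells. miR-146b-5p thus stood among the less abundant miRNAs of epithelial corpus and cauda, while miR-146a-5p was near the middle or above it in each group.

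The opposite arms of the hairpins were nearly absent. miR-146b-3p had 7, 13 and 6 counts in whole caput, 0 and 1 in corpus, and 1, 0 and 1 in cauda. In epithelial cells it had 1 count in the first caput library and 0 elsewhere. miR-146a-3p had 0 counts in the 6 epithelial libraries and was not analysed in whole tissue. Neither arm reached the level to be tested. The whole tissue counts of miR-146b-3p were highest in the 3 caput libraries, a difference that was not tested.

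As miR-146a is commonly measured as a leukocyte and inflammation miRNA, leukocyte markers (miR-142-3p, miR-142-5p, miR-150-5p, miR-155-5p and miR-223-3p) were set beside it. Their summed level was 952 to 1191 CPM in whole caput, 1228 to 1536 in corpus and 2108 to 2238 in cauda, and 442 to 680, 522 to 666 and 1376 to 1541 in epithelial cells. The sum was thus highest in cauda of both preparations and lower in epithelial cells than in whole tissue, but it was mostly miR-142-5p, with 944 CPM in whole caput and 1879 in whole cauda against 392 and 909 in epithelial cells. miR-142-3p (37.2 and 83.0 CPM in whole caput and cauda, 10.4 and 32.9 in epithelial cells) and miR-223-3p (19.3 and 58.1, 6.40 and 7.23) were likewise lower in mean level there. miR-155-5p, a marker of few counts, ran the other way, at 2.68 and 10.3 CPM in whole caput and cauda and 10.4 and 34.7 in epithelial cells. From caput to cauda, 3 of 5 markers tested rose in whole tissue, where 27.9% of all miRNAs were called higher and 53.2% in either direction. These were miR-150-5p by 1.16, miR-155-5p by 2.35 and miR-223-3p by 1.49, with a list median of 1.16 against −0.046 over all miRNAs. The epithelial shares of all miRNAs were 13.9% called higher and 12% lower. In epithelial cells both of the 2 tested rose, where 25.9% of all were called (11.9% without the second caput library), miR-142-5p by 1.04 and miR-150-5p by 1.56, beside the 0.66 of miR-146a-5p, and 5, 3 and 5 of the 5 had more than 3 counts in caput, corpus and cauda. miR-150-5p, a lymphocyte miRNA and the only one of the markers above the minimum in both preparations under the same name, was higher in epithelial cells by 1.39 in caput and 1.84 in cauda, with −0.52 in corpus (adjusted p = 0.348). The part of leukocytes in the levels of miR-146a-5p was not tested.

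Other miRNAs tied to inflammatory signalling were read from a list of 12, on which neither member stands. From caput to corpus 0 of the 10 tested in whole tissue rose and 3 fell (29.9% of all miRNAs were called in either direction): miR-9-5p, a neural and NF-κB-linked miRNA, by 3.94, miR-31-5p by 1.46 and miR-203-3p, a keratinocyte miRNA, by 1.42. In epithelial cells 0 of 9 rose and 2 fell (12.2% of all, but 4.78% without the second caput library, 6.44% without the first corpus library and 8.08% without the first caput library), miR-9-5p with −4.34 and miR-31-5p with −2.34. The list medians were −0.20 and −0.55, against −0.052 and −0.15 over all miRNAs tested. miR-146b-5p, at −2.72 and −2.71, therefore lay between miR-9-5p and the rest in both preparations. miR-21, miR-125b-5p and miR-181b-5p lay with miR-146a-5p within 0.50 of no change, though miR-21 was at −0.49 in whole tissue (limma adjusted p = 0.0020). There let-7i-5p (0.72), miR-132-3p (1.05) and miR-125a-5p (−0.51) lay further out, and none of them was called.

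**Figure D5:**
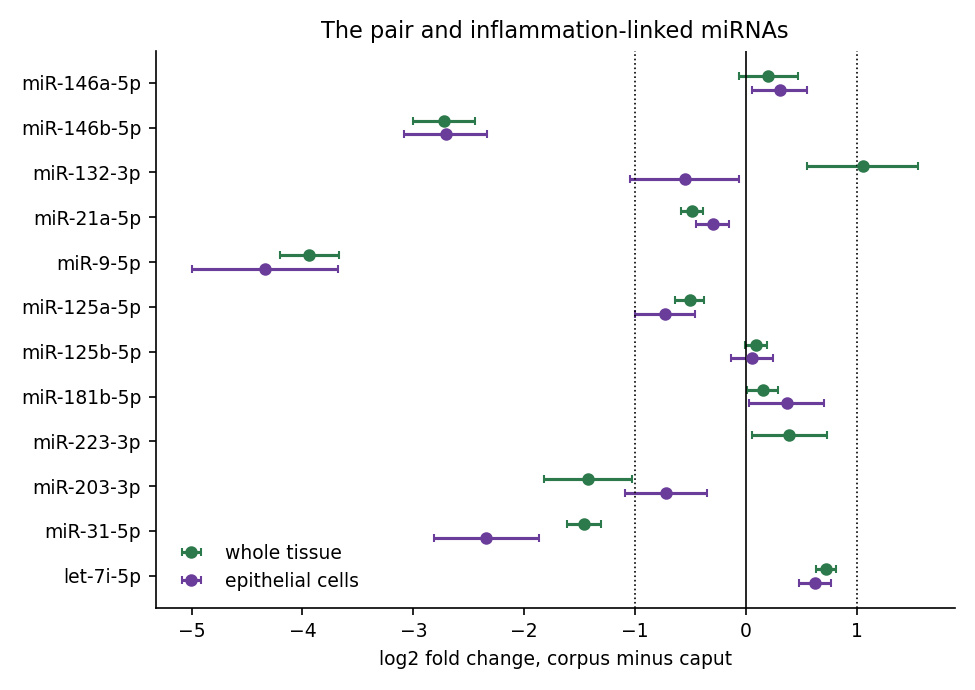
Change from caput to corpus (log2 ± SE) for miR-146a-5p, miR-146b-5p and the tested miRNAs of the inflammation-linked list, in whole tissue (green) and epithelial cells (purple); dotted lines mark 2-fold. miR-9-5p (−3.94 and −4.34), miR-146b-5p (−2.72 and −2.71) and miR-31-5p (−1.46 and −2.34) are past 2-fold lower in both preparations.

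In whole tissue the list split between caput and cauda: 3 of the 11 tested rose (miR-155-5p, an NF-κB-induced miRNA, by 2.35, miR-132-3p by 1.89 and miR-223-3p, a myeloid miRNA, by 1.49) and 2 fell (miR-9-5p by 4.22 and miR-125a-5p by 1.40), where 53.2% of all miRNAs were called. In epithelial cells 0 of 9 rose and 2 fell, miR-9-5p with −4.48 and miR-31-5p with −2.01, where 25.9% were. The medians were −0.046 and −0.36, against −0.046 and −0.0014. From corpus to cauda 2 of 11 rose in whole tissue, miR-31-5p by 1.42 and miR-223-3p by 1.095, and 0 of 8 were called in epithelial cells, where 27.3% and 10.9% of all were, with medians of −0.028 and 0.12 against 0.048 and 0.078.

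Between preparations 8 of the 12 could be tested, where 37.1%, 30.4% and 39.7% of all miRNAs were called in either direction in caput, corpus and cauda. miR-132-3p was higher in epithelial cells by 3.78, 2.30 and 1.50 in caput, corpus and cauda, and miR-203-3p by 1.02, 1.81 and 1.94. miR-9-5p was lower, with −1.73, −2.08 and −1.96. Against this, miR-125a-5p was called lower in caput and corpus and miR-31-5p in corpus and cauda. The list therefore held 2 higher in each region and 2, 3 and 2 lower, and in corpus and cauda the largest of its rises, 2.30 and 1.94, was below that of miR-146a-5p.

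The patterns most like each member were sought by Pearson's r of log2 CPM over the libraries of a preparation, given as a description, since libraries share scaling and region. miR-146b-5p was followed most closely by miR-669a-5p and miR-669p-5p (r = 0.98 each, with identical values, so 1 pattern) and miR-32-3p (0.98) over the 8 whole tissue libraries, and by miR-148a-5p (0.97), miR-9-5p (0.97) and miR-340-5p (0.96) over the 6 epithelial libraries. For miR-146a-5p the closest were miR-582-3p (0.73), miR-331-3p (0.61) and miR-1198-5p (0.57) in whole tissue and miR-221-3p (0.96), miR-29a-5p (0.89) and miR-25-3p (0.88) in epithelial cells. The members themselves were not each other's neighbours. Their r was 0.20 in whole tissue, where miR-146b-5p was place 98 of 359 in likeness to miR-146a-5p, and −0.84 in epithelial cells, place 208 of 215.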

How the data were processed

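Small RNA libraries (Illumina TruSeq, HiSeq) were made by the authors from whole tissue and isolated epithelial cells. Reads were screened against PhiX, adaptors, mitochondrial and ribosomal RNA and aligned to mm10 and miRBase. The submitters' processing notes name CASAVA 1.8.2, Bowtie 1.1.1 and limma. The deposited values are expected counts per miRNA, with 0.001 added in the epithelial table, which was removed. Between 2.95% and 4.58% of values per library were fractional, and values were rounded for the tests (totals moved by at most 0.00337%).

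Tests used limma 3.58.1 voom with TMM from edgeR 4.0.16 (R 4.3.3), 1 fit per preparation over miRNAs with a mean count above 10 in either region compared, and 1 joint fit of 14 libraries, checked on simulated data. Named miRNAs were the members, their opposite arms, fixed marker and inflammation lists, and the 3 nearest patterns per member. Members and lists were chosen with earlier results of these data known. Alternatives were edgeR quasi-likelihood, DESeq2 1.42.0 with TMM factors, scaling by totals, filters, a replicate block and leaving out libraries. Same-numbered libraries of whole tissue deviated together between caput and cauda (r = 0.22, 0.11 and 0.14) and between corpus and cauda (0.24 and 0.16). Caput and corpus did not (−0.0022 and −0.031). The labels state no pairing, and libraries of different numbers were not compared. Whether caput and cauda libraries are truly pairs is therefore open, and the paired test assumes it.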

Additional observations from a re-analysis of the deposited data

How the results depend on the processing

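miR-146b-5p kept its call from caput to corpus and from caput to cauda under every alternative tried (differences from −2.94 to −2.39 and −3.06 to −2.56 in whole tissue, −3.17 to −2.29 and −3.17 to −2.78 in epithelial cells), as did the higher miR-146a-5p of epithelial cells and the ratio between preparations (−1.93 to −1.49). A minimum of 10 counts in every library gives no value for miR-146b-5p in epithelial cells, where 1 library had 9 counts. That minimum called 64 miRNAs against 100 from caput to corpus and 115 against 189 from caput to cauda in whole tissue, and 28 against 56 from caput to cauda in epithelial cells, with fewer miRNAs tested; no minimum called 53 against 25 between epithelial caput and corpus and 37 against 21 between epithelial corpus and cauda. A replicate block changed no call of either member. With it, miR-146b-5p differed from caput to cauda by −2.93 in whole tissue and −3.02 in epithelial cells, and miR-146a-5p by 0.66 in epithelial cells (adjusted p = 0.0701). Same-numbered epithelial libraries deviated in opposite directions between caput and cauda (r = −0.12), together between caput and corpus (0.22), and by −0.073 between corpus and cauda. A block with only the cauda numbers crossed, chosen after seeing the data, called 64 miRNAs against 56 without a block from caput to cauda, and 40 against 25 from caput to corpus and 32 against 21 from corpus to cauda. Scaling by library totals moved the median of all miRNAs by up to 0.35 and turned 3 uncalled differences: miR-146a-5p from caput to cauda in whole tissue (0.14), and the differences between preparations from caput to corpus of miR-146a-5p (−0.085) and miR-146b-5p (−0.15). It also called miR-146b-5p higher in epithelial cauda (1.07), as edgeR did in corpus (1.17). The ratio over both preparations had an exact permutation p of 0.0167 for caput to corpus (−3.02) and caput to cauda (−3.21; 0.0417 with a replicate block in whole tissue, 0.0625 adjusted), and turned the whole tissue corpus to cauda value (−0.19). The causes were not tested. With 1 library left out, where a lone remaining library is assumed to vary like the other groups, miR-146a-5p ranged from −0.037 to 0.47 and −0.44 to 0.064 from caput to corpus and cauda in whole tissue, and miR-146b-5p from corpus to cauda from −0.41 to 0.050 in whole tissue and −0.71 to 0.14 in epithelial cells. The differences between preparations ranged from −0.22 to 0.50 (caput to corpus) and 0.41 to 1.24 (caput to cauda) for miR-146a-5p, and from −0.50 to 0.37, −0.53 to 0.25 and −0.43 to 0.19 for miR-146b-5p. The epithelial excess of miR-146b-5p ranged from 0.81 to 1.38 in caput and 0.59 to 1.38 in corpus, and the ratio from corpus to cauda from −0.11 to 0.55 in whole tissue and −1.25 to 0.068 in epithelial cells. Low epithelial counts of miR-146b-5p, 9 to 26 in corpus and cauda, limit its precision there.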
